A study of Mus musculus with 48 samples.

Results

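The genes described here encode receptors that recognise dying cells and debris, the soluble proteins that bridge those receptors to their targets, and partners that act with them. They were chosen by symbol: Mertk, Axl, Tyro3, Gas6, Pros1, Megf10, Gulp1, Itgav, Itgb5 and Lrp1, which are 10 of the 24060 gene symbols in the deposited read-count table. All 10 were listed and were counted in each of the 48 libraries, with 504 to 110786 reads in the astrocyte libraries and 194 to 35076 reads in the whole-tissue libraries. A fall of Mertk with hM4Di in the astrocyte libraries was known when the genes were chosen, so that fall is described here and is not independent evidence.

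Dying cells and shed membrane expose phosphatidylserine, a lipid that healthy cells keep on the inner face of the plasma membrane. Gas6 and protein S (Pros1) bind that lipid with their amino-terminal domain and bind the receptor tyrosine kinases Tyro3, Axl and Mertk with the other end, so that a cell carrying a receptor can take up the target. Megf10, with its adaptor Gulp1, the integrin made of the Itgav and Itgb5 chains, and Lrp1 are further routes of recognition. In the brain, Megf10 and Mertk are known for the removal of synapses and debris by astrocytes, while Axl and Mertk are also used by microglia.

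The libraries came from the striatum of adult C57 mice in which an adeno-associated virus made astrocytes express Rpl22, a ribosomal protein, with a hemagglutinin tag for 3 weeks. Each replicate gave an immunoprecipitated library (IP, RNA bound to the tagged astrocyte ribosomes) and an input library (RNA purified from lysate of the whole tissue), and each of the 12 groups held 4 libraries. Vehicle mice were set against mice given MPTP (20 mg/kg, 4 doses), which is toxic to dopamine neurons. Wild-type littermates were set against SAPAP3 knockout mice, in which the synaptic scaffold gene Dlgap3 is the target. In the third experiment all mice, controls included, were R6/2, a transgenic model of Huntington's disease, and those with a control cargo were set against those with hM4Di, a muscarinic M4 receptor engineered to signal through Gi when bound by a synthetic drug. The labels name no promoter for the RiboTag or hM4Di constructs and do not say whether an hM4Di agonist was given. They describe intrastriatal MPTP with a dose given by body weight, and the titles of MPTP replicate 2 name different animals for IP and input. The series text counts 24 mice, while the titles name 25. That count takes wild-type replicate 3 as a single animal, although the form of its name does not settle whether it joins 2 animals. The p-values measure the spread between these samples.

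Counted reads ran from 34.3 M to 61.5 M in IP (46.7 M ± 6.47 M, SD, n = 24) and in input from 21.9 M to 39.0 M (29.6 M ± 4.79 M, SD, n = 24). All 12 astrocyte markers of a fixed list were more than 2-fold enriched in IP in each experiment. All 12 microglial markers were more than 2-fold depleted. The 9 oligodendrocyte markers were not depleted as a set (median log2 0.08, 0.82 and -0.01 in MPTP, SAPAP3 and R6/2). In SAPAP3, 4 of these 9 and 5 of 7 oligodendrocyte precursor markers were enriched more than 2-fold. In R6/2, 1 of the 9 and 3 of the 7 were depleted. Of 12 medium spiny neuron markers, 4, 1 and 2 were depleted more than 2-fold. The part of RNA from other cells in the enrichment of the 10 genes was not tested. Microglial transcripts were not at 0 in IP: Cx3cr1 ranged from 1.53 to 12.1 CPM (read counts scaled for library size and composition) over the 24 IP libraries. Chrm4, whose sequence is close to that of the hM4Di transgene, stood at 37.5 to 65.2 CPM in control R6/2 IP. With hM4Di it stood at 555 to 860 CPM in IP. Dlgap3 fell by 1.40 ± 0.17 (log2, SE) in knockout IP (edgeR quasi-likelihood adjusted p = 0.028). Dlgap3 reads remained in knockout IP, at 56.6 to 97.8 CPM against 173 to 229 CPM in wild type. In input they stood at 160 to 195 CPM against 368 to 475 CPM.

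The upstream sequence is shown for the receptor Mertk and for the ligands Pros1 and Gas6, a receptor that fell and its ligands that rose with hM4Di in IP. Each line gives the 250 bases before the RefSeq start site on GRCm38.p6, the assembly named mm10 in the submitters' processing notes, 5′ to 3′ on the strand of the gene, and capitals mark each match to the GC box GGGCGG on either strand.
Mertk (chr2:128698665-128698914, plus strand): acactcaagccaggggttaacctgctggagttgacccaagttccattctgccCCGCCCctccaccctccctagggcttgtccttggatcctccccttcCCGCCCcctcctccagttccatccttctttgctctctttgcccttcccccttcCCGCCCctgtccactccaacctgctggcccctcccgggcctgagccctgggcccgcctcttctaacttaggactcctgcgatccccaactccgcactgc
Pros1 (chr16:62854057-62854306, plus strand): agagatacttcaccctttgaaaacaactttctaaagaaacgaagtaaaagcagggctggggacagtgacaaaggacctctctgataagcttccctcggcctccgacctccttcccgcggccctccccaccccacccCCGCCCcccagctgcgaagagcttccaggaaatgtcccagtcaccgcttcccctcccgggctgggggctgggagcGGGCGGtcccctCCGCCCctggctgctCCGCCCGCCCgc
Gas6 (chr8:13494536-13494785, minus strand): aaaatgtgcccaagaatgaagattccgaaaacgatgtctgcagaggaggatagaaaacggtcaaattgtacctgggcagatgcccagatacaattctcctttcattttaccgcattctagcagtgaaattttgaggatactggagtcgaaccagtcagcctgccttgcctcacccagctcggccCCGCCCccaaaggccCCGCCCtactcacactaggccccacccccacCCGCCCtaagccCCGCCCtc

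The Mertk window held 3 GC boxes, that of Pros1 5, of which the last 2 overlap, and that of Gas6 4. RefSeq gave such a window for 9 of the 10 genes, and 8 of the 9 held at least 1 GC box, Itgav being the exception, against 32.7% of all 32851 windows of this length. The 9 windows had a GC content of 54.8% to 73.2%, all above the median of 52.4% over all windows. The other 7 motifs searched on both strands had no match in the 9 windows: CCAAT (in 33.8% of all windows), TATAAA (12.4%), TGACGTCA (1.55%), TGACG, which lies within it (17.8%), TGANTCA (6.75%), CACGTG (6.02%) and AGGTCA (14.0%). These matches describe letters in the windows and show no binding.

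With hM4Di in R6/2 mice, astrocyte-bound RNA for Mertk fell and that for its ligands Pros1 and Gas6 rose, as did that for the receptor Megf10, while that for the receptor Lrp1 fell. Of the 10 genes, 3 rose, 2 fell and 5 did not pass. Over all 15159 genes tested, 14.7% passed in IP, 9.06% higher and 5.63% lower. The 4 control and 4 hM4Di libraries did not overlap for 5 of the 10 genes, against 23.5% of all genes. The median log2 fold change was 0.06 over the 10 genes and 0.01 over all genes.

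Mertk (chr2:128698956-128802894, plus strand, GENCODE M21), the receptor kinase, stood at 157, 179, 195 and 181 CPM in the 4 control IP libraries and at 135, 135, 116 and 112 CPM with hM4Di. All 4 hM4Di libraries lay below all 4 controls. The gene fell by 0.50 ± 0.08 (log2, SE; edgeR quasi-likelihood adjusted p = 0.0080, lower in 4 of 4), and its call was kept when any of the 8 libraries was left out, with log2 values from -0.57 to -0.46. In a bulk IP, fewer astrocytes with the transcript, less of it per astrocyte and more RNA from other cells cannot be told apart.

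The other receptor kinases did not pass. Axl (chr7:25757273-25788705, minus strand), which binds Gas6, stood at 140 to 165 CPM in control IP and 144 to 179 CPM with hM4Di, and the groups overlapped (log2 0.10 ± 0.08, adjusted p = 0.44). Without hM4Di replicates 2 and 3 its value was -0.02. Tyro3 (chr2:119797733-119818104, plus strand) spanned 110 to 234 CPM in control IP and 130 to 158 CPM with hM4Di (-0.10 ± 0.20, adjusted p = 0.78), the widest standard error among the 10 genes in this comparison. Its value ran from -0.25 to 0.15 when single libraries were left out.

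Pros1 (chr16:62854307-62929346, plus strand), which encodes the bridging and anticoagulant protein S, had the largest change of the 10. Control IP libraries gave 53.7, 51.1, 55.4 and 47.0 CPM and hM4Di libraries 84.8, 87.6, 109 and 96.4 CPM. Every hM4Di library exceeded every control, and the log2 fold change was 0.88 ± 0.09 (adjusted p = 0.0015). The call was kept in 8 of 8 fits that left a library out, with log2 values from 0.81 to 0.94.

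Gas6 (chr8:13465374-13494490, minus strand) gave 235, 213, 238 and 244 CPM in control IP and 280, 277, 254 and 250 CPM with hM4Di. The groups did not overlap but came close, and the rise of 0.21 ± 0.06 (adjusted p = 0.037) was kept in 2 of 8 fits without a library, where the adjusted p ran from 0.041 to 0.098. Its exons overlap those of Tmem255b on the opposite strand by 34 bases, and the strand setting of the counting is not given in the sources used here.

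Megf10 (chr18:57133090-57297467, plus strand), an engulfment receptor of astrocytes, gave 223, 228, 232 and 197 CPM in control IP and 242, 262, 299 and 250 CPM with hM4Di (0.28 ± 0.08, adjusted p = 0.042). The call was kept in 1 of 8 fits without a library (adjusted p 0.032 to 0.097). Its adaptor Gulp1 (chr1:44551511-44796838, plus strand) stood at 20.7 to 27.2 CPM in control IP and 23.1 to 25.3 CPM with hM4Di, inside the control range (0.05 ± 0.08, adjusted p = 0.71). Leaving single libraries out gave -0.01 to 0.12.

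Lrp1 (chr10:127538161-127621148, minus strand), a large endocytic receptor that binds many ligands, gave 2263, 2130, 2199 and 2229 CPM in control IP and 2058, 1922, 1947 and 1993 CPM with hM4Di. All 4 hM4Di libraries were lower, by a small amount (log2 -0.14 ± 0.04, adjusted p = 0.044), and the call was kept in 1 of 8 fits without a library (adjusted p 0.043 to 0.11). The integrin chains Itgav (chr2:83724397-83806916, plus strand) and Itgb5 (chr16:33829665-33949338, plus strand) overlapped between groups. Itgav stood at 453 to 479 CPM in control IP and 461 to 500 CPM with hM4Di (0.03 ± 0.04, adjusted p = 0.60). Itgb5 stood at 93.2 to 108 CPM and 93.5 to 111 CPM (0.07 ± 0.06, adjusted p = 0.48).

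**Figure D1:**
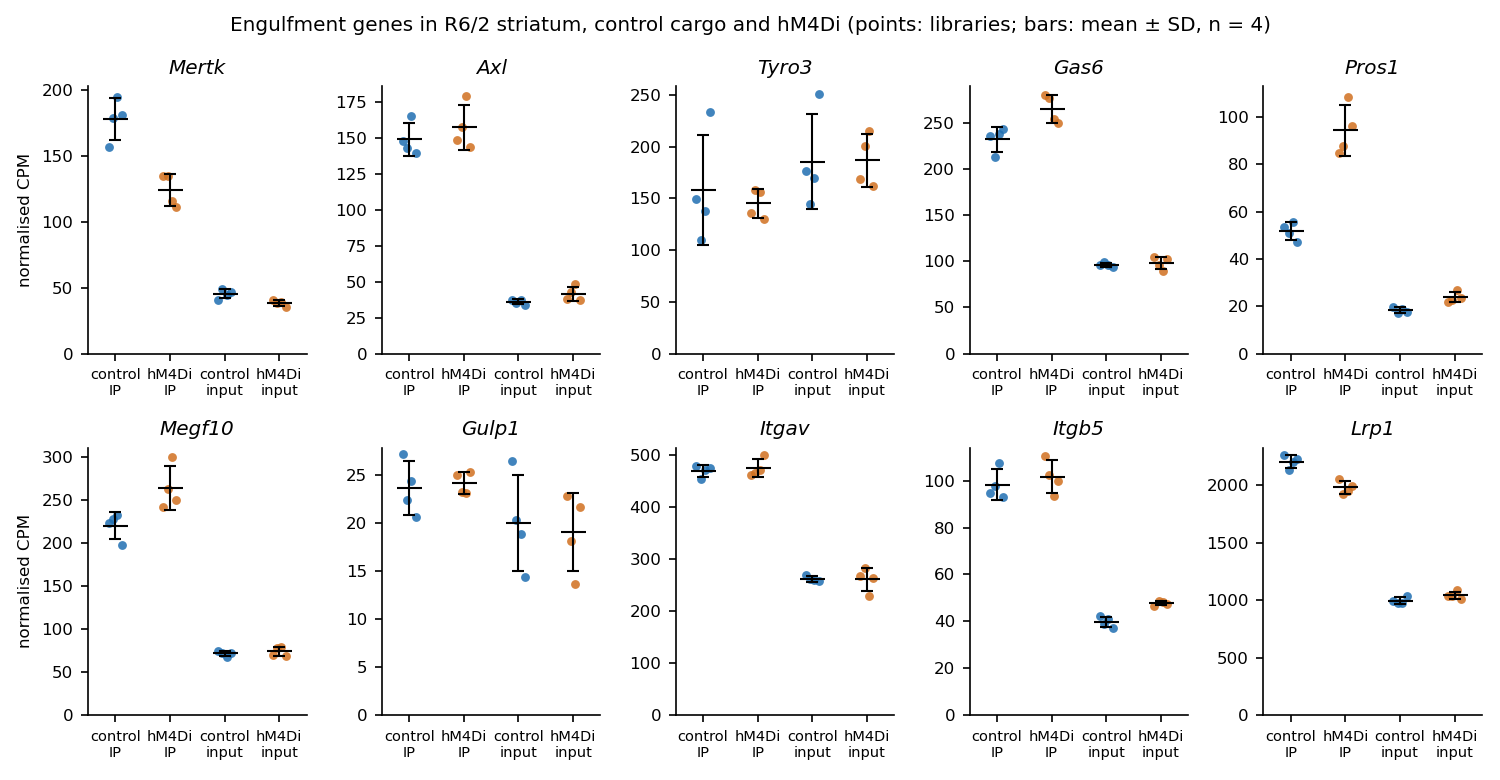
Normalised CPM (linear axis from 0) of the 10 genes in the 16 R6/2 libraries, with blue points for control cargo, orange points for hM4Di, and bars for the mean ± SD of 4 libraries. In IP, all Mertk points with hM4Di lie below the controls and all Pros1 points lie above them.

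Calls depended on which libraries entered the fit. Without hM4Di replicates 2 and 3 together, 464 genes passed in place of 2227, and 2 of the 10 genes, Mertk and Pros1. With the replicate number as a block 3 of the 10 passed (Mertk, Pros1 and Megf10), against 10.6% of all genes. On the deposited FPKM values with limma, calls among all genes split into 1545 higher and 516 lower, against 1374 and 853 by edgeR.

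Markers of other cells moved in the same libraries. All 9 oligodendrocyte markers rose in hM4Di IP (median log2 0.86), with a summed level of 2808 to 3957 CPM in control IP and 5032 to 7224 CPM with hM4Di. Of 12 medium spiny neuron markers 7 fell (median log2 -0.48; summed 1951 to 3029 CPM against 1651 to 1709 CPM). No microglial marker of 12 passed (summed 55.5 to 61.3 CPM against 59.6 to 68.1 CPM). Of 11 endothelial and mural markers 1 fell, while the median log2 over the 11 was 0.18. Their summed levels, in which the abundant markers weigh most, were lower without overlap (71.4 to 75.7 CPM against 60.9 to 68.0 CPM). Of 7 oligodendrocyte precursor markers 2 rose and 1 fell (summed 212 to 242 CPM against 236 to 298 CPM). Of 12 astrocyte markers, Gfap rose from 617 to 949 CPM to 1004 to 1590 CPM. Slc1a2 fell from 14042 to 15486 CPM to 10044 to 11044 CPM, and 10 did not pass. The median log2 over the 12 was -0.08. The sum of all 12, most of it Slc1a2, was 20920 to 24107 CPM against 17630 to 18850 CPM. Rpl22, the tagged gene, fell from 292 to 647 CPM to 230 to 293 CPM (log2 -0.98 ± 0.22, edgeR adjusted p = 0.021). No marker in these lists was at 0 in any group. The part of these shifts in the changes of the 10 genes, and of the genes of the other lists below, was not tested.

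In whole-striatum input, none of the 10 genes passed with hM4Di, where 3 of 15168 genes did (0.0198%, edgeR; 1163 at an unadjusted p under 0.05). For 3 of the 10 the groups did not overlap, as did 4.73% of all genes. Mertk gave 41.0, 49.3, 44.4 and 47.0 CPM in control input and 40.4, 38.8, 39.1 and 35.3 CPM with hM4Di (-0.23 ± 0.07, adjusted p = 0.46), the same sign as in IP. Pros1 gave 19.7, 17.2, 19.0 and 17.6 CPM against 21.9, 22.8, 26.8 and 23.6 CPM (0.38 ± 0.08, adjusted p = 0.29). Itgb5 gave 42.2, 38.8, 40.9 and 37.2 CPM against 46.5, 48.7, 48.4 and 47.5 CPM (0.27 ± 0.05, adjusted p = 0.17). DESeq2 passed Itgb5 (adjusted p = 0.0012) and Pros1 (adjusted p = 0.0089) among 53 genes, or 0.35%. The other 7 genes lay between -0.06 and 0.22 on the log2 scale.

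Whether the effect of hM4Di in IP differed from that in input was tested as an interaction. Pros1 rose further in IP than in input (difference 0.49 ± 0.12, edgeR adjusted p = 0.031), and Lrp1 fell in IP relative to input (-0.22 ± 0.05, adjusted p = 0.027). These were 2 of the 10 genes, against 3.1% of 15880 genes, and each call was lost when some replicates were left out, IP and input together: Pros1 kept its call in 2 of 8 such fits and Lrp1 in 3 of 8. The difference for Mertk was -0.28 ± 0.11 and did not pass (adjusted p = 0.19). IP and input of one replicate come from the same animal by the titles, and with the animal as a block 17.4% of genes and 5 of the 10 passed: Pros1 (0.49, adjusted p = 4.4e-05), Lrp1 (-0.22, 0.0044), Mertk (-0.28, 0.0064), Megf10 (0.21, 0.026) and Itgb5 (-0.22, 0.029). Without hM4Di replicates 2 and 3, none of the 10 passed and 82 genes did over the whole table. Calls over all genes split into 302 higher and 190 lower without the block and 1327 and 1434 with it.

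**Figure D2:**
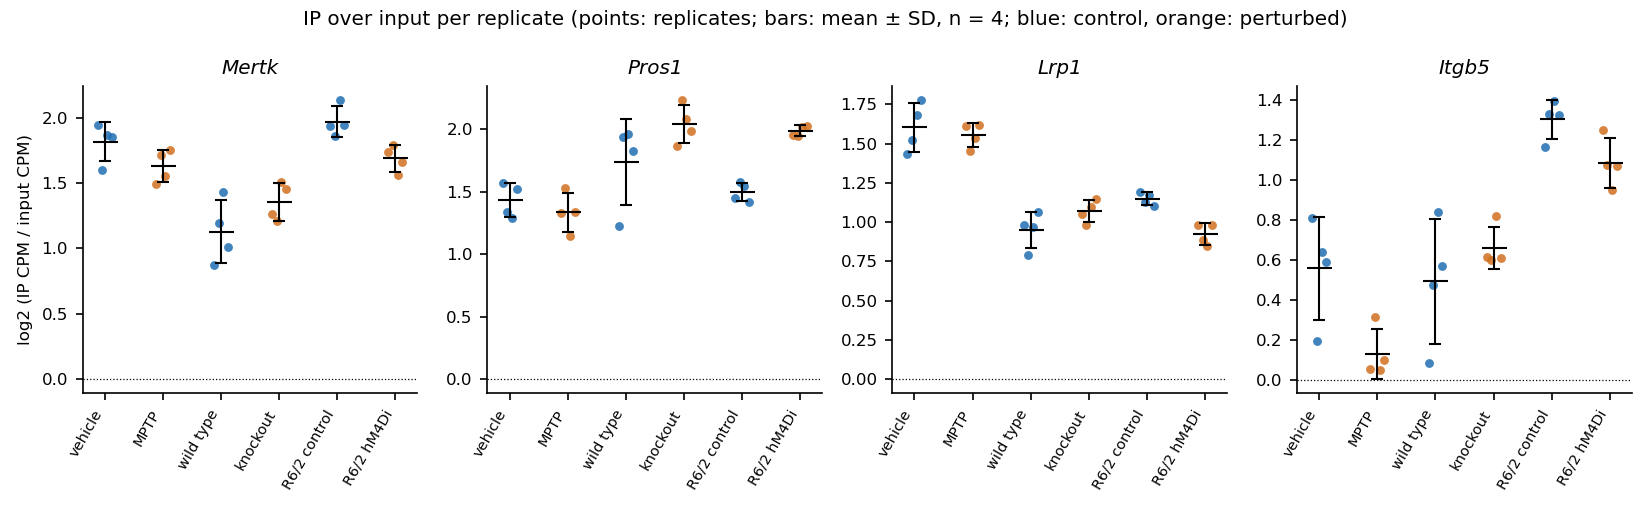
Log2 of IP CPM over input CPM for each replicate of Mertk, Pros1, Lrp1 and Itgb5 in the 6 conditions, with blue points for control and orange for perturbed groups and bars for the mean ± SD of 4 replicates. In R6/2 mice the ratio of Pros1 runs from 1.42 to 1.58 with control cargo and 1.94 to 2.03 with hM4Di, and that of Mertk from 1.86 to 2.14 and 1.56 to 1.80.

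All 10 genes except Tyro3 were higher in IP than in input in each experiment. Of these, 6 (Megf10, Axl, Pros1, Mertk, Gas6 and Lrp1) were enriched more than 2-fold with adjusted p under 0.05 in all 3 experiments, as were 8.83% of the 15409 genes tested in all 3. By experiment, 7 of 10 were enriched with MPTP and vehicle (background 12.4%), 8 of 10 with SAPAP3 knockout and wild type (12%), and 7 of 10 in R6/2 (11.2%). The median log2 enrichment of the 10 genes was 1.32, 1.15 and 1.27 in the 3 experiments, and that of all genes was -0.02, -0.00042 and -0.02.

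Among the receptors, Megf10 was enriched by 2.15 ± 0.04, 1.86 ± 0.06 and 1.72 ± 0.05 (log2, SE) in the MPTP, SAPAP3 and R6/2 experiments. Axl reached 1.80 ± 0.08, 1.68 ± 0.08 and 1.98 ± 0.06. Mertk reached 1.67 ± 0.05, 1.25 ± 0.10 and 1.83 ± 0.06, which placed it at the 95.1, 90.9 and 96.2 percentile of all genes tested. Tyro3, the remaining kinase of the family, went the other way, with -0.62 ± 0.06, -0.38 ± 0.06 and -0.30 ± 0.14, and its R6/2 value did not pass (adjusted p = 0.058) in the fit without the animal. With the animal as a block it did (-0.31 ± 0.03, adjusted p = 6.4e-08), and the log2 ratio was below 0 in all 8 R6/2 replicates, from -0.46 to -0.11.

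The ligand Gas6 was enriched by 1.31 ± 0.04, 1.48 ± 0.05 and 1.35 ± 0.04, and Pros1 by 1.32 ± 0.09, 1.88 ± 0.12 and 1.74 ± 0.06. Lrp1 reached 1.52 ± 0.07, 1.00 ± 0.07 and 1.03 ± 0.03, the latter values at the 2-fold limit: its SAPAP3 call was lost in 5 of 8 other settings and in 4 of 8 fits that left out a replicate, IP and input together. Itgav stood near the limit too, at 1.22 ± 0.04, 1.02 ± 0.05 and 0.85 ± 0.04. Itgb5 passed the limit only in R6/2 (0.28 ± 0.06, 0.57 ± 0.08 and 1.19 ± 0.04) and Gulp1 only in the SAPAP3 experiment (0.38 ± 0.06, 1.05 ± 0.12 and 0.29 ± 0.11).

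**Figure D3:**
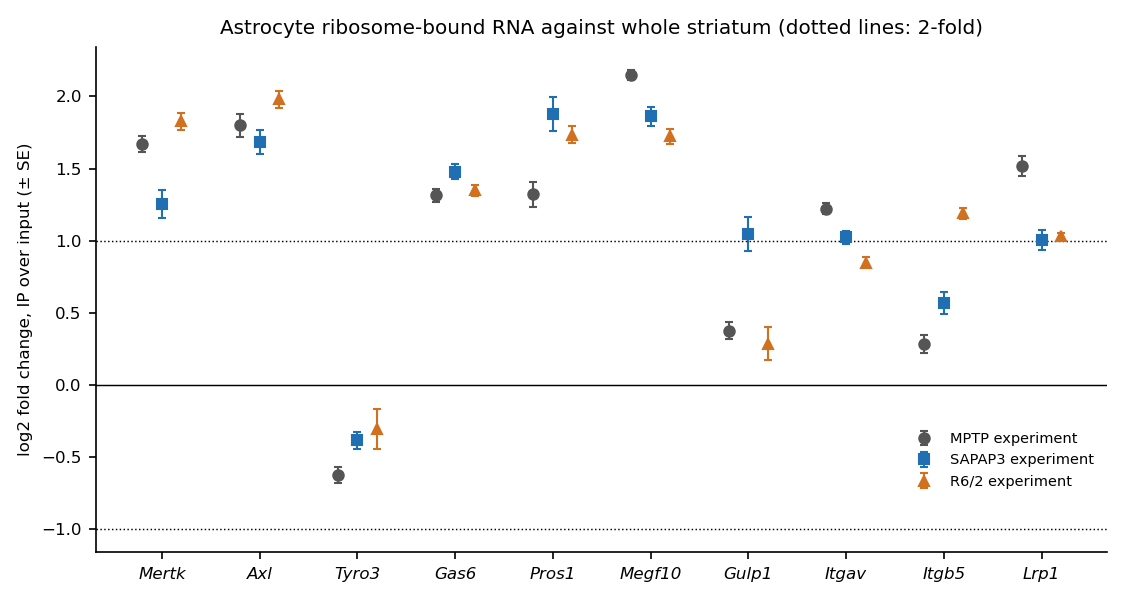
Log2 fold change of IP over input (± SE) for the 10 genes in the MPTP (circles), SAPAP3 (squares) and R6/2 (triangles) experiments, each from 8 IP and 8 input libraries, with dotted lines at the 2-fold limit. Tyro3 lies below 0 in all 3 experiments and the other 9 genes lie above it.

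The enrichment of some of these genes differed between R6/2 mice with control cargo and the healthy controls of the other experiments (vehicle and wild type). Mertk was more enriched in R6/2 control mice by 0.49 ± 0.12 (edgeR adjusted p = 0.0066) and Itgb5 by 0.78 ± 0.13 (adjusted p = 0.00029). Megf10 (-0.40 ± 0.07, adjusted p = 0.00035) and Itgav (-0.28 ± 0.07, adjusted p = 0.012) were less enriched. These were 4 of 10 genes, against 14.9% of 16318 genes. With the animal as a block 25.5% of genes passed, and Gulp1 (-0.44, adjusted p = 0.026) and Tyro3 (0.22, adjusted p = 0.030) passed too. The call of Itgav was lost without control cargo replicate 2 (adjusted p = 0.051).

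For Mertk, log2 of IP over input was 1.82 ± 0.15 in vehicle mice, 1.13 ± 0.24 in wild-type littermates and 1.97 ± 0.12 in R6/2 control mice (SD, n = 4). The vehicle range of 1.60 to 1.95 overlapped the R6/2 range of 1.86 to 2.14, and the wild-type range of 0.87 to 1.43 lay below both. For Itgb5 the R6/2 range of 1.17 to 1.40 lay above those of vehicle (0.20 to 0.81) and wild-type mice (0.09 to 0.84). Megf10 was at 2.24 ± 0.03 in vehicle, 1.80 ± 0.15 in wild-type and 1.62 ± 0.13 in R6/2 control mice, and the R6/2 range of 1.46 to 1.78 lay below that of vehicle mice but overlapped the wild-type range of 1.67 to 2.00. Itgav, at 1.27 ± 0.16, 0.96 ± 0.09 and 0.84 ± 0.04, likewise overlapped only wild type (0.85 to 1.06 against 0.79 to 0.89). All 9 oligodendrocyte markers and all 7 oligodendrocyte precursor markers were less enriched in R6/2 control mice (median -0.97 and -1.07). Each experiment carries its own project number in the titles, and the group labels of vehicle and wild-type mice name no control cargo. R6/2 genotype, cargo and project therefore cannot be told apart.

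With MPTP, none of the 10 genes passed in IP by edgeR, as none of 15069 genes did (0.0%), while 1692 (11.2%) and 7 of the 10 had an unadjusted p under 0.05. Of the 10 log2 values 8 were below 0, with a median of -0.17 against 0.01 over all genes. Itgb5 stood at 119, 98.0, 105 and 106 CPM in vehicle IP and 77.9, 80.0, 83.3 and 87.3 CPM in MPTP IP (-0.37 ± 0.06, adjusted p = 0.094). Megf10 stood at 222, 216, 221 and 228 CPM against 200, 179, 170 and 200 CPM (-0.23 ± 0.06, adjusted p = 0.21), and Itgav at 413 to 452 CPM against 385 to 410 CPM (-0.11 ± 0.05, adjusted p = 0.44). The groups of these 3 genes did not overlap, nor did those of 6.95% of all genes.

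DESeq2 passed Itgb5 (adjusted p = 0.00012) and Megf10 (adjusted p = 0.029) among 302 genes (2.0%) in MPTP IP, and edgeR passed Itgb5 without vehicle replicate 2 (adjusted p = 0.040). Mertk did not differ beyond the spread, at 170 to 200 CPM in vehicle IP and 150 to 197 CPM in MPTP IP (-0.07 ± 0.09, adjusted p = 0.82), and its value changed sign to 0.0093 without MPTP replicate 1. Astrocyte markers in the same libraries had a median of -0.21, with none of 12 passing (summed 26836 to 34916 CPM against 25301 to 29412 CPM), and their part in the lower values was not tested. In input no gene of 15601 passed by edgeR (0.0%; 1289 at an unadjusted p under 0.05, 65 by DESeq2). Megf10 there gave 44.6 to 48.0 CPM in vehicle and 41.0 to 42.7 CPM in MPTP mice (-0.16 ± 0.04, adjusted p = 0.51), 1 of the 10 genes without overlap, against 4.33% of all genes. Mertk in input gave 51.7 to 56.2 CPM and 53.2 to 61.3 CPM (0.12 ± 0.05, adjusted p = 0.60).

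With SAPAP3 knockout, none of the 10 genes passed in IP, where 4 of 15198 genes did (0.0263%; 399 at an unadjusted p under 0.05, 8 by DESeq2), or in input, where 1 of 15591 did (0.00641%; 869 at an unadjusted p under 0.05, 8 by DESeq2). The groups of all 10 overlapped in both fractions, where those of 1.6% (IP) and 3.93% (input) of all genes did not. Mertk gave 90.8, 120, 142 and 111 CPM in wild-type IP and 112, 139, 173 and 157 CPM in knockout IP (0.32 ± 0.15, adjusted p = 1.00), and 49.5 to 55.1 CPM and 46.5 to 61.0 CPM in input (0.11 ± 0.08, adjusted p = 0.76). Pros1 gave 79.3 to 124 CPM and 105 to 138 CPM in IP (0.25 ± 0.13, adjusted p = 1.00). The largest value in input was that of Gulp1, with 8.31 to 11.97 CPM in wild-type and 6.29 to 9.10 CPM in knockout mice (-0.44 ± 0.14, adjusted p = 0.73).

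**Figure D4:**
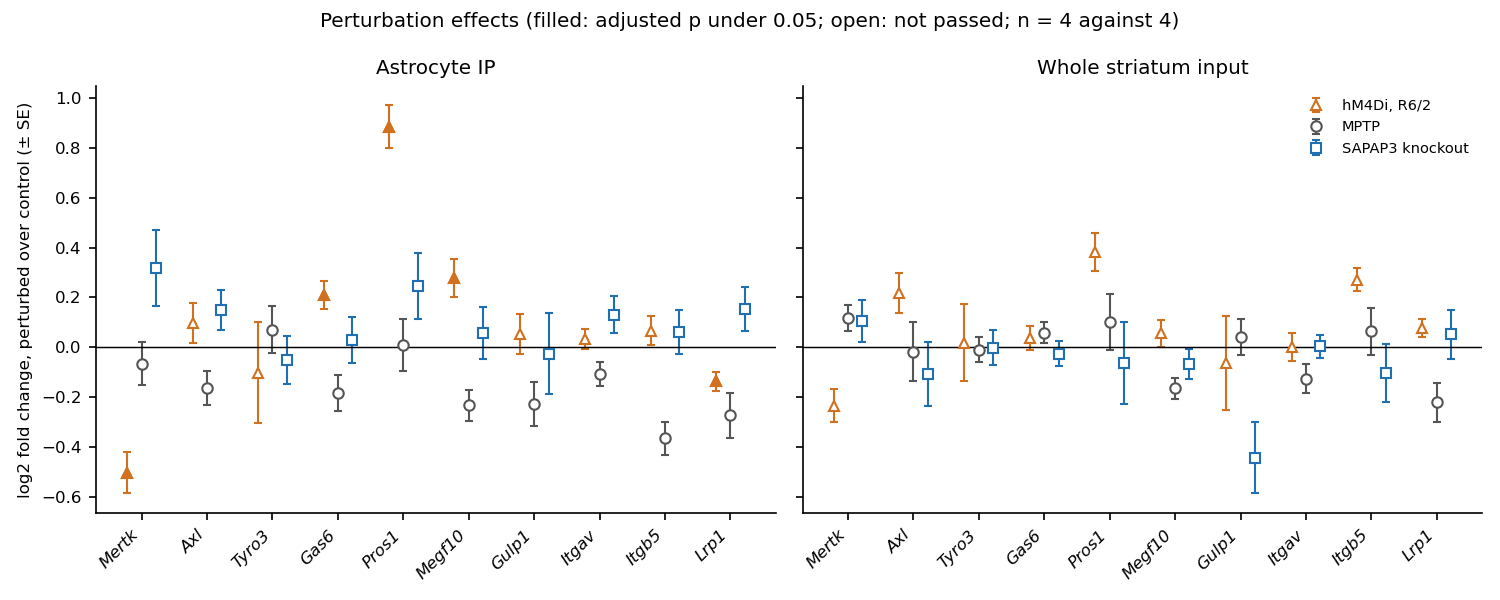
Log2 fold change (± SE) of the 10 genes for hM4Di against control cargo (triangles), MPTP against vehicle (circles) and SAPAP3 knockout against wild type (squares), 4 libraries against 4, in IP (left) and input (right). Filled symbols passed an edgeR adjusted p of 0.05, and all 5 of them belong to hM4Di in IP.

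Levels between genes were compared per gene length, as the FPKM deposited by the authors. By median over the 24 IP libraries Lrp1 was highest (85.5 to 146, median 121 FPKM), then Gas6 (79.9 to 118, median 100 FPKM) and Itgav (48.9 to 70.9, median 57.9 FPKM). Lrp1 exceeded Gas6 in 20 of 24 libraries, and Gas6 had the higher mean in MPTP IP (95.7 ± 6.33 against 92.8 ± 9.52 FPKM, SD, n = 4). Gas6 lay above Itgav in all 24 libraries without overlap of their ranges. Mertk (23.6 to 52.6, median 41.0 FPKM), Axl (26.1 to 47.9, median 34.8 FPKM), Tyro3 (22.2 to 46.0, median 30.0 FPKM), Itgb5 (median 27.8 FPKM), Megf10 (median 27.7 FPKM) and Pros1 (13.6 to 36.3, median 25.0 FPKM) formed a run in which the ranges of neighbours overlapped. Mertk exceeded Axl in 15 of 24 libraries. Gulp1 was lowest (4.06 to 8.81, median 6.92 FPKM) and did not overlap Pros1. In the 24 input libraries the order differed most for Tyro3, which was second to Lrp1 (medians over the 24 libraries 49.5 and 68.1 FPKM) and above Gas6 in 19 of 24 libraries. That order did not hold in each experiment: Lrp1 exceeded Tyro3 in 16 of 24 input libraries, and Tyro3 was the higher of the pair in vehicle (51.2 ± 2.27 against 44.4 ± 4.06 FPKM, SD, n = 4) and MPTP input (51.3 ± 3.02 against 38.5 ± 3.99 FPKM). Mertk followed Itgb5 (medians 15.5 and 20.4 FPKM), and Gulp1 again had the lowest median. Megf10 exceeded Gulp1 in 20 of 24 input libraries, and Gulp1 had the higher mean in MPTP input (6.43 ± 0.41 against 6.01 ± 0.16 FPKM, SD, n = 4).

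**Figure D5:**
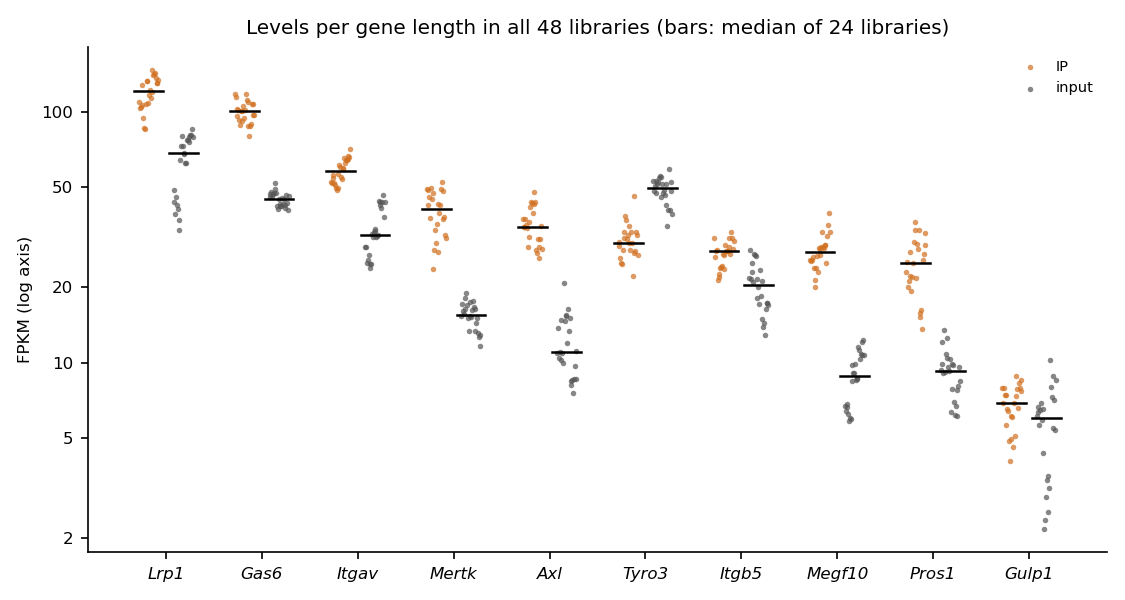
FPKM (log axis) of the 10 genes in 24 IP (orange) and 24 input (grey) libraries, ordered by the IP median, with black bars at the median. Tyro3 has a higher median in input than in IP, and Gulp1 has the lowest median in both.

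Other genes of the engulfment pathway were followed with lists chosen for their known roles. Their counts in hM4Di IP stand beside 14.7% of all genes called, 9.06% higher and 5.63% lower, and with lists of this size nothing particular to a list is read from them. Among 11 bridging proteins and opsonins tested, 3 rose and 1 fell in hM4Di IP (median log2 0.38). Mfge8, which links phosphatidylserine to the integrin that contains Itgav, fell from 403 to 464 CPM in control IP to 325 to 349 CPM (-0.39 ± 0.05, edgeR adjusted p = 0.0041), and the call was kept in 8 of 8 fits without a library. Its relative Edil3 rose from 220 to 285 CPM to 276 to 331 CPM (0.30 ± 0.08, adjusted p = 0.042), with overlapping groups. The complement genes C4b and C3 rose most: C4b gave 216, 205, 269 and 238 CPM in control IP and 477, 945, 1444 and 279 CPM with hM4Di (1.79 ± 0.44, adjusted p = 0.029). C3 stood at 1.49 to 4.20 CPM and 3.17 to 12.7 CPM (1.86 ± 0.51, adjusted p = 0.041). Replicates 2 and 3 were the highest of the hM4Di libraries for both, and each call was kept in 3 of 8 fits without a library.

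Of 11 other engulfment receptors tested, only Stab2 passed, falling from 0.69 to 1.77 CPM to 0.37 to 0.48 CPM (-1.53 ± 0.29, adjusted p = 0.014), a low level. Of 15 genes of engulfment signalling and lipid export, 3 rose and 1 fell, where 9.06% of all genes rose and 5.63% fell. Rhog, a small GTPase upstream of Rac, rose from 7.06 to 8.75 CPM to 11.5 to 15.6 CPM (0.80 ± 0.12, adjusted p = 0.0055), Abca1, a lipid exporter, by 0.21 ± 0.05 (adjusted p = 0.024) and Dnm2, a dynamin, by 0.20 ± 0.05 (adjusted p = 0.038), while Wasl, an activator of actin branching, fell (-0.16 ± 0.04, adjusted p = 0.027). Rhog kept its call in 8 of 8 fits without a library, and the calls of Abca1, Dnm2 and Wasl were kept in 3, 2 and 5 of 8.

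Of 13 genes of phosphatidylserine display or of do-not-eat-me signals 2 passed, a share near the 14.7% of all genes. Atp11a, a lipid flippase, rose (0.38 ± 0.07, adjusted p = 0.0096). Sirpa, a receptor for the do-not-eat-me signal Cd47, fell (-0.29 ± 0.07, adjusted p = 0.022). Of 16 genes of phagosome maturation and the lysosome, 4 rose and 2 fell (all genes 9.06% and 5.63%). Tfeb, a transcription factor of lysosomal genes, rose from 12.7 to 16.6 CPM to 21.8 to 24.5 CPM (0.64 ± 0.09, adjusted p = 0.0044), with Lamp1 (0.26 ± 0.06, adjusted p = 0.019), Ctsd (0.25 ± 0.05, adjusted p = 0.014) and Ctsb (0.22 ± 0.05, adjusted p = 0.023). Those that fell were Pik3c3, a lipid kinase of endosomes and autophagy (-0.20 ± 0.05, adjusted p = 0.025), and Atp6v1a, a subunit of the proton pump of the lysosome (-0.15 ± 0.04, adjusted p = 0.042). Of 10 nuclear receptors and sheddases 3 rose and none fell: Ppard (0.55 ± 0.09, adjusted p = 0.0089), Nr1h2 (0.23 ± 0.05, adjusted p = 0.026) and Adam17, a protease that sheds Mertk from the cell surface (0.29 ± 0.08, adjusted p = 0.046), whose call was kept in 1 of 8 fits without a library. The medians of these 5 lists lay between -0.10 and 0.06.

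In hM4Di input no gene of the 6 lists passed by edgeR. By the interaction, 4 did, where 3.1% of 15880 genes did over the whole table. None was among the 13 other engulfment receptors or the 10 nuclear receptors and sheddases tested. Each of the 4 had a value higher in IP than in input: Rhog (0.70 ± 0.14, adjusted p = 0.019), Tfeb (0.66 ± 0.12, adjusted p = 0.011), Edil3 (0.40 ± 0.10, adjusted p = 0.042) and Atp11a (0.40 ± 0.07, adjusted p = 0.012). They were 1 of 15, 1 of 16, 1 of 11 and 1 of 13 genes tested in their lists, and nothing particular to a list is read from them. In input alone their log2 values were 0.09 (Rhog), -0.03 (Tfeb), -0.11 (Edil3) and -0.03 (Atp11a). By the same interaction all 9 oligodendrocyte markers passed as higher (median 0.85), and 3 of 12 medium spiny neuron markers as lower. The part of these marker shifts in the values of the 4 genes was not tested. None of the lists held a gene that passed with MPTP or SAPAP3 knockout in either fraction. Over all genes 0.0% passed with MPTP in each fraction, and 0.0263% (IP) and 0.00641% (input) with the knockout.

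IP against input set these lists apart. Of the other engulfment receptors 1 was enriched in all 3 experiments, Ager, a receptor for several damage-related ligands (log2 1.96, 2.44 and 1.95), and 7 were depleted, among them the microglial integrin chains Itgam (-4.71, -3.69 and -5.09) and Itgb2 (-4.53, -3.71 and -4.50). The C1q chains that start the complement cascade were depleted (C1qb -5.92, -4.10 and -5.59; C1qc -5.87, -4.15 and -5.80), while C4b (2.37, 2.43 and 2.52) and Mfge8 (1.73, 1.67 and 2.16) were enriched. Abca1 (2.13, 1.83 and 1.64) and Dock1 (1.98, 1.65 and 1.46), a Rac activator, were enriched, as were Lamp2 (1.22, 1.40 and 1.12), Lamp1 (1.04, 1.26 and 1.12) and Ppara (2.15, 1.93 and 1.95), and Rxrg was depleted (-1.33, -1.10 and -1.13). Over all genes 8.83% were enriched and 8.09% depleted in all 3 experiments.

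The genes whose levels followed Mertk most closely were sought over the 24 IP libraries, as the highest Pearson r of log2 CPM after each experiment was centred on its mean, among 10670 genes. They were Glul, the astrocyte glutamine synthetase (r = 0.93), Rin2, a Rab5 exchange factor (0.89), Sesn1 (0.88), Ank2 (0.86) and Aldoc, an astrocyte aldolase (0.85), where the median over all genes was 0.06. The points share libraries and depth, and the hM4Di difference enters r. Each of the 5 fell in hM4Di IP, by log2 values from -0.39 to -0.19 (edgeR adjusted p 0.0066 to 0.023). Choosing the 5 by that r favours such a fall, so the fall is not independent evidence. After each group was centred on its own mean, r was 0.90 for Glul, 0.88 for Rin2, 0.84 for Aldoc, 0.79 for Sesn1 and 0.76 for Ank2. Glul gave 3604, 4056, 4355 and 4097 CPM in control IP and 3358, 3100, 2759 and 2913 CPM with hM4Di. All 4 hM4Di libraries lay below all 4 controls. Among the other 9 genes r with Mertk ran from -0.52 (Pros1) to 0.40 (Gulp1), and after group centring from -0.33 (Pros1) to 0.67 (Gulp1).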

How the data were processed

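The tools named in the submitters' processing notes are STAR, an aligner, and HTSeq, a read counter, with the build mm10; versions, annotation and strand setting are not given in the sources used here. The deposited table holds whole read counts per gene, and the FPKM deposited by the authors were each count divided by a fixed gene length and the column total, as checked in 12979 genes. No column was left unmapped, and 4 rows with duplicated symbols are not named.

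Counts were tested in R 4.3.3 with edgeR 4.0.16: genes kept by filterByExpr (minimum count 10), TMM scaling, quasi-likelihood F test, Benjamini-Hochberg adjustment over all genes tested, threshold 0.05. Standard errors were derived from the F statistic. CPM were scaled by TMM over the 48 libraries. Perturbed and control libraries were compared within each fraction, IP with input over 16 libraries with condition in the model (enriched: also over 2-fold), and their difference as an interaction. Scripts were tested on simulated data. Alternatives were RLE scaling, 2 other filters, DESeq2 1.42.0, limma 3.58.1 (voom, and trend on log2 FPKM with pseudocounts 1 and 0.1), the replicate number as a block, 16 libraries together, each replicate left out (IP and input together where a fit holds both), and hM4Di replicates 2 and 3 left out together.

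The 10 genes, the lists and the alternatives were chosen with earlier results of these data known. The named genes are the 10, the 5 most like Mertk and fixed markers. From the other lists, each gene that passed in an hM4Di comparison or its interaction was named. The plan allowed up to 4 per list by smallest p, and the phagosome and lysosome list exceeded it. Up to 2 most enriched and 2 most depleted genes per list were also named. Gfap and Slc1a2, the 2 astrocyte markers that passed with hM4Di, were named after their values were seen. Older symbols were matched for 3 list genes. IP and input of 1 animal deviated together, taken by the animal names in the titles: r was 0.34 to 0.60 in R6/2 and 0.20 to 0.47 in SAPAP3 (own animal best in 8 of 8), and 0.05 to 0.33 in MPTP (7 of 8), where the titles of replicate 2 differ. No 2 libraries of a group agreed within sampling noise (72 pairs). The library totals give the depth, and counts limit precision only for counting error. Coordinates are from GENCODE M21 on GRCm38 and upstream sequences from RefSeq on GRCm38.p6.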

Additional observations from a re-analysis of the deposited data

Results flagged for a closer look

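Of the 120 sets of 4 libraries (10 genes in 12 groups), 4 held a library far from the other 3 by Dixon's criterion, which chance gives in about 1 in 20 sets. Axl was highest in MPTP input replicate 1, at 68.8 CPM. In vehicle input replicate 2, Megf10 was lowest of its group at 44.6 CPM and Itgb5 highest at 85.4 CPM. Itgb5 was lowest in knockout IP replicate 1, at 89.4 CPM.

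For 2 of the 10 genes the effect of hM4Di differed between IP and input by an interaction test (edgeR, without the animal in the fit): Pros1 by 0.49 and Lrp1 by -0.22 on the log2 scale. Over all genes 3.1% passed. With the animal as a block 5 of the 10 passed, Mertk, Megf10 and Itgb5 being added, against 17.4% of all genes. For 4 genes, against 14.9% of all genes, the IP enrichment differed between R6/2 control mice and healthy controls: Mertk by 0.49, Itgb5 by 0.78, Megf10 by -0.40 and Itgav by -0.28. With the animal as a block Gulp1 and Tyro3 passed too, where 25.5% of all genes did. Genotype, cargo and project cannot be told apart in this comparison of R6/2 with healthy mice.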

How the results depend on the processing

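For the genes named one by one, 1910 of the values recomputed under an alternative kept their direction and side of the threshold, 174 lost their call, 14 gained one and 4 changed sign. The sign changes were Axl in hM4Di IP without hM4Di replicates 2 and 3 (-0.017) and, in ranges over single replicates left out (IP and input together where a fit holds both), Tyro3 (-0.25 to 0.15) and Gulp1 (-0.012 to 0.12) in hM4Di IP and Mertk in MPTP IP (-0.12 to 0.0093). The causes were not tested.

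Genes called in hM4Di IP (2227) were 3474 by DESeq2, 3636 with all 16 libraries, 464 without hM4Di replicates 2 and 3, and 892 to 2130 with single replicates left out. Of the 10 genes, 5 called became 3 with every gene that had a read, 3 with the replicate block, 2 without hM4Di replicates 2 and 3, and 2 to 3 with single replicates left out. In hM4Di input (3) the counts were 5 with every gene, 53 by DESeq2 (2 of the 10), 6 with the block and 5 without replicates 2 and 3. The interaction (492) gave 1159 by DESeq2, 2761 with the block, 82 without replicates 2 and 3, and 91 to 433 with single replicates left out; of the 10 genes 2 became 1 by limma-voom, 5 with the block, 0 without replicates 2 and 3, and 0 to 2 with single replicates left out. RLE scaling split the interaction calls into 294 higher and 280 lower, and limma on log2(FPKM + 1) into 404 and 119.

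MPTP IP (0) gave 302 by DESeq2 and 289 with 16 libraries (2 of the 10 genes in each), and 0 to 65 without single replicates (0 to 1 of the 10). MPTP input (0) gave 65 by DESeq2, 1 with every gene, 1 with the block, and 0 to 2 without single replicates. Knockout IP (4) gave 8 by DESeq2, 2 with the block and 0 to 3 without single replicates, and knockout input (1) gave 8, 3 with 16 libraries and 0 to 1. IP against input called 2026, 1927 and 1789 genes in the MPTP, SAPAP3 and R6/2 experiments on log2(FPKM + 1), and 8 of the 10 genes in SAPAP3 became 5 with a mean CPM of at least 1, 4 on log2(FPKM + 1) and 5 on log2(FPKM + 0.1). R6/2 against healthy enrichment (2427) gave 4159 with the animal block and 1461 to 3019 without single replicates.

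Replicate numbers across groups did not pair the samples (r of deviations -0.05 to 0.09 in R6/2, -0.29 to 0.01 in MPTP and -0.06 to 0.34 in SAPAP3; 3, 0 and 3 of 8 libraries matched their own number best), so the block across groups is a check only, and counts above that name the replicate block for single fractions share only a number.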
